A study of Mus musculus with 18 samples.

Results

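The RNA targets described here are chimeric reads whose target part starts on the mouse mitochondrial chromosome (chrM) at or before the last base of the leucine tRNA gene that follows 16S, a stretch that holds the 12S and 16S ribosomal RNA (rRNA) genes. They were chosen by position alone, and 58481 of 1153545 chimeric reads (5.07%) met the rule. The reads come from CLEAR-CLIP, in which Argonaute 2, the protein that carries microRNAs (miRNAs), is precipitated from UV-irradiated cells and the miRNA is ligated to the RNA it is held against. Each read then names 1 miRNA and places 1 stretch of target RNA. The cells were cultured mouse keratinocytes, 18 libraries in 2 sets, and the libraries of each group are pooled in 1 file, so each group is 1 pooled sample with no replicate check.

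Set 1 compared miR-200 double knockout (DKO) cells, 3 libraries, with control cells labelled K14-Cre only, 6 libraries; the keratin 14 promoter is active in basal keratinocytes. Set 2 compared 3 DKO libraries and 3 libraries of miR-200 inducible cells, induced with doxycycline (3 ug/ml, 24 hours), with 3 libraries of the same inducible cells left uninduced. The set 2 control cells therefore carry the inducible construct, which the labels do not give for DKO cells. Which miR-200 genes were deleted, and whether the lines are clones, was not stated in the labels. The miR-200 family held 0.0480 times the control share of reads in the set 1 DKO pool and 0.0538 times in the set 2 DKO pool. The epidermal miRNA miR-205-5p was present in every pool, at 2.24% to 5.39% of reads. Set and sequencing run coincide, so that differences between the sets cannot be told apart from the run.

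Mitochondrial 12S and 16S rRNA are the RNA cores of the small and large subunit of the mitochondrial ribosome. They are transcribed inside the organelle from 1 strand together with the tRNAs that flank them, while Argonaute 2 and miRNAs are best known from the cytoplasm, where they repress messenger RNAs through pairing of the seed, bases 2 to 8 of the miRNA. The let-7 family, which shares 1 seed, is known for restraining growth genes and is abundant in differentiated cells. On the mm10 genome, mt-Rnr1 (12S) spans chrM:70-1024 and mt-Rnr2 (16S) chrM:1094-2675, with the phenylalanine tRNA gene before them (chrM:1-68), the valine tRNA gene between them (chrM:1025-1093) and a leucine tRNA gene after them, from base 2676.

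The mature sequences of the miRNAs that lead these targets are shown 5′ to 3′ with the seed in capitals, from RefSeq (GRCm38.p6, the assembly of mm10). The first 9 names are the let-7 family, which held most of the reads and whose members share the seed GAGGUAG but differ behind it.
mmu-let-7a-5p: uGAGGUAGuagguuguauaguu
mmu-let-7b-5p: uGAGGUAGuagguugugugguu
mmu-let-7c-5p: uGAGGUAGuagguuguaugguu
mmu-let-7d-5p: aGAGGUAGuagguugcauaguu
mmu-let-7e-5p: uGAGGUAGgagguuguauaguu
mmu-let-7f-5p: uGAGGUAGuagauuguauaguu
mmu-let-7g-5p: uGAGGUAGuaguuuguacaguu
mmu-let-7i-5p: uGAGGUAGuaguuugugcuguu
mmu-miR-98-5p: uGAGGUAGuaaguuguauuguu
The next names, whose seeds differ from each other, each led 1 or more of the places described further on, in 12S, in 16S or, for miR-6481, in the phenylalanine tRNA gene. The list is not complete, since miR-21a-5p, first at 1 mixed place in 12S, is not shown.
mmu-miR-31-5p: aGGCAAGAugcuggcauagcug
mmu-miR-23a-3p: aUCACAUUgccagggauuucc
mmu-miR-200c-3p: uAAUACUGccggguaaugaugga
mmu-miR-210-3p: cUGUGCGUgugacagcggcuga
mmu-miR-155-5p: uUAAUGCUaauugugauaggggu
mmu-miR-6481: cACUGAAAaugcuuagaug

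The rRNA targets held 1287 of 48662 reads in the set 1 DKO pool (2.64%, exact Clopper-Pearson 95% interval 2.50 to 2.79) and 2186 of 161692 in the set 1 control pool (1.35%, 1.30 to 1.41). They held 11539 of 210003 reads in the set 2 DKO pool (5.49%, 5.40 to 5.59), 25020 of 419117 in the induced pool (5.97%, 5.90 to 6.04) and 18449 of 314071 in the uninduced pool (5.87%, 5.79 to 5.96). All shares and intervals in the text cover counting error alone. The rRNA part took most of the mitochondrial reads, between 65.2% and 73.8% of those of a pool. Every rRNA read lay on the plus strand, which is the sense strand of both rRNA genes. With the 0 minus-strand reads replaced by a floor of 3, the share would be 0.233% (set 1 DKO), 0.137% (set 1 control), 0.0260% (set 2 DKO), 0.0120% (induced) and 0.0163% (uninduced). These are floor values, not exact interval limits. Over the rest of the mitochondrial chromosome, 1.86% to 6.04% of the reads of a pool lay on the minus strand.

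Reads piled up on few positions. Over the 5 pools they lay on 7443 distinct positions (start and end together) with 1471 distinct starts, and the 142 positions present in all 5 pools held 55.8% of the reads. Between 62.6% and 70.1% of a pool's positions held 1 read. The deepest position was chrM:637-666 in every pool, with 142 reads in the set 1 DKO pool and 285 in the set 1 control pool. It held 526 reads in the set 2 DKO pool, 1217 in the induced pool and 1200 in the uninduced pool. Target parts touched all 2537 bases of the 12S and 16S genes, so the coverage was complete but very uneven. Reads named 333 of the 1797 miRNA names in the series.

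The small-subunit rRNA took nearly everything. By the midpoint of the target part, 12S held 55111 reads and 16S 2966, the phenylalanine tRNA gene 130, the valine tRNA gene 132, the leucine tRNA gene 140 and the first bases of ND1 2. Per base of gene, 12S had 41.5 times the reads of 16S in the set 1 DKO pool and 23.6 times in the set 1 control pool. The same ratio was 25.0 in the set 2 DKO pool, 32.7 in the induced pool and 33.4 in the uninduced pool. The plot along the rRNA shows 1 dominant peak in the second part of 12S in each pool.

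**Figure D1:**
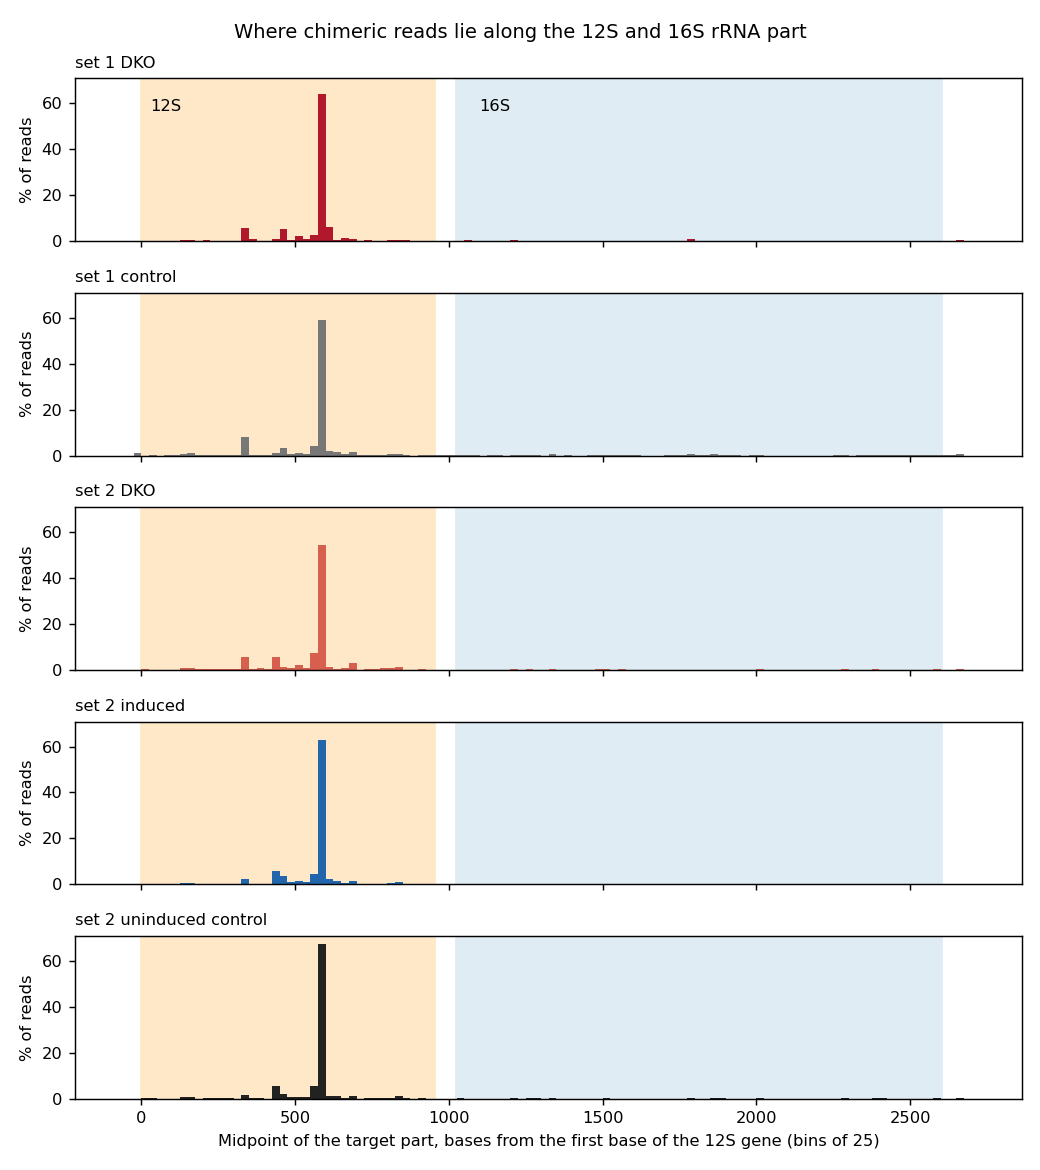
Share of each pool's rRNA reads (vertical axis, percent) by the midpoint of the target part, in bins of 25 bases counted from the first base of the 12S gene; shaded areas are the 12S and 16S genes. All 5 pools have their highest bin in the same place, inside the peak centred 583 bases into 12S, which held 61.4% to 72.9% of the reads of a pool.

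The 10 deepest groups of reads (sites, 41 bases wide by target midpoint and numbered by mean share) all lay in 12S. Site 1 (midpoints chrM:633-673) held 39818 reads, 68.1% of all. Its share of the rRNA reads was 69.9% (67.3 to 72.4) in the set 1 DKO pool, against 63.8% (61.7 to 65.8) in the set 1 control pool. It was 61.4% (60.5 to 62.3) in the set 2 DKO pool, 67.9% (67.3 to 68.5) in the induced pool and 72.9% (72.2 to 73.5) in the uninduced pool. The site had a sharp 5′ edge. Base 637 was the first base of 57.3% of its target parts, whereas the commonest last base, 666, ended 17.3%. A second start, base 626, opened 9.31% of its let-7 reads and 8.31% of its other reads.

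At site 1 the partner was let-7. The 9 family names held 35616 of its reads (89.4%), between 85.1% in the set 2 DKO pool and 91.5% in the uninduced pool. The largest names there were let-7a (22.2% of the site's reads), let-7e (19.6%), let-7c (14.1%), let-7d (11.1%) and let-7b (9.97%). The 4202 reads of other miRNAs at the site shared the same edge, with 43.0% of them starting at base 637 against 59.0% of let-7 reads. miR-21a-5p and miR-27a-3p, both abundant in keratinocytes, had their own deepest place in a window that overlaps it (midpoints chrM:641-681), with 32.2% and 28.9% of their rRNA reads.

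Across the whole rRNA part, let-7 took 68.1% of reads (65.5 to 70.7) in the set 1 DKO pool, against 59.7% (57.6 to 61.8) in the set 1 control pool. It took 56.4% (55.5 to 57.3) in the set 2 DKO pool, 63.4% (62.8 to 64.0) in the induced pool and 69.0% (68.3 to 69.6) in the uninduced pool. In each pool these shares were higher than on the rest of the mitochondrial chromosome, on cytoplasmic 18S rRNA and among all remaining reads pooled. Individual targets within those remaining reads were not compared for their let-7 share. Among reads outside chrM and the 18S gene, let-7 took 4.24% and 3.27% in set 1 (DKO, control) and 7.08%, 6.07% and 6.29% in set 2 (DKO, induced, uninduced), so that its share on mitochondrial rRNA was 7.96 to 18.3 times as high. On cytoplasmic 18S rRNA it took 3.64% to 6.65% of a pool's reads. On the rest of the mitochondrial chromosome it took 1.36% to 6.14%, and there miR-21a-5p led with 63.2% to 82.0%. Within the rRNA part, let-7 took 59.8% to 72.1% of the 12S reads of a pool and 10.8% to 24.5% of the 16S reads.

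A miRNA was counted as over- or under-represented where its share of the rRNA reads was at least 2-fold above or below its share of all other reads of the pool, with a counting interval that excluded 1, among names with at least 20 reads seen or expected on the rRNA. In the set 1 DKO pool 6 of 18 names were over (33.3%) and 55.6% under, and in the set 1 control pool 11 of 29 were over (37.9%) and 44.8% under. In the set 2 DKO pool 11 of 90 were over (12.2%) and 68.9% under, in the induced pool 11 of 124 (8.87%) and 76.6%, and in the uninduced pool 12 of 111 (10.8%) and 78.4%. Shares add to 100%, so a family that holds most of the reads lowers the share of all other names. Of the 17 names measured in all 5 pools, 6 were over in all of them: let-7d, let-7c, let-7e, let-7b, let-7a and let-7f, with geometric mean ratios over the pools of 17.8, 16.7, 16.6, 14.2, 13.9 and 6.10. In set 2, 10 of 87 names were over in all 3 pools, namely these 6, let-7g, let-7i, miR-98 and miR-652-3p. Without let-7 in either count, miR-31-5p was the 1 name over in all 5 pools.

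The 7 names under in all 5 pools were miR-709, miR-706, miR-3470b, miR-3473b, miR-3470a, miR-24-3p and miR-205-5p. Most of these calls did not remain under other counts: without let-7, miR-709 alone remained under in all 5 pools, and with combinations counted once, miR-3470b and miR-706 alone. Both alternatives lower the counts, and a name below the minimum of 20 seen or expected in a pool is not called there. A lost call therefore need not mean a higher rRNA share. miR-709 lost its call by combinations in this way, with 0 on the rRNA. miR-709, the leading miRNA elsewhere in set 1, had 0 rRNA reads in all 5 pools. At its share of the other reads, 165 would have fallen on the rRNA in the set 1 DKO pool, 274 in the set 1 control pool, 117 in the set 2 DKO pool, 269.5 in the induced pool and 212 in the uninduced pool. With 0 reads replaced by 3 in each pool, the geometric mean of its ratios is 0.0152, a floor value and not an exact interval limit. The 9 most frequent set 1 control names among those at least 3-fold more frequent there than in set 2 uninduced reads, a list chosen after the data were seen, had 0 and 0 rRNA reads in set 1 (DKO, control) and 1, 2 and 0 in set 2 (DKO, induced, uninduced), while they held 28.5% and 38.0% of the other reads of set 1. The rRNA share of set 1 is read against a total that holds these names.

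The let-7 members did not lie on the rRNA in equal measure. Over all pools, 48.3% of all let-7e reads lay on the rRNA, 46.6% of let-7d, 44.1% of let-7c, 42.0% of let-7a and 38.6% of let-7b. The share was 21.8% for let-7f, 21.3% for miR-98, 18.9% for let-7g and 15.4% for let-7i. The first 5 names read GG at bases 11 and 12, counted from the 5′ end of the miRNA, and the other 4 do not. Against let-7a, let-7f differs by G12A alone, let-7g by G12U and U18C, let-7i by G12U, A17G, U18C and A19U, and miR-98 by G11A and A19U. Among the GG members, let-7e differs from let-7a by U9G, let-7c by A19G, let-7b by A17G and A19G, and let-7d by U1A and U16C.

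This grouping was seen after the values and is given without a test. Counted by reads, the lowest GG member lay above the highest of the other 4 in every pool. The GG members spanned 28.9% to 38.7% in the set 1 DKO pool against 8.05% to 17.3% for the others, and 19.5% to 26.8% in the set 1 control pool against 5.08% to 12.5%. They spanned 29.6% to 42.8% in the set 2 DKO pool against 12.5% to 22.6%, 44.7% to 53.3% in the induced pool against 16.7% to 25.3%, and 45.2% to 53.7% in the uninduced pool against 17.1% to 23.1%. miR-98 had 20 reads in the set 1 DKO pool and 59 in the set 1 control pool, so its share there is loose. By comparison, the 9 epidermal names had between 0.335% (miR-203-3p, set 1 DKO) and 6.56% (miR-23b-3p, set 2 DKO) of their own reads on the rRNA. With each combination of position and miRNA counted once, the 5 GG members together had 18.2%, 9.36%, 12.5%, 12.3% and 13.3% of their combinations on the rRNA (set 1 DKO, set 1 control, set 2 DKO, induced, uninduced), against 12.6%, 5.29%, 8.23%, 6.98% and 7.57% for the others. For these sums the direction held in each pool while the gap narrowed, but the members no longer separated. By combinations miR-98 lay above let-7a in 4 of 5 pools, at 15.8% against 15.5% in the set 1 DKO pool, 13.6% against 11.6% in the set 2 DKO pool, 12.7% against 9.69% in the induced pool and 11.8% against 10.7% in the uninduced pool. In the set 2 DKO pool it also lay above let-7c and let-7b (10.9%), and in the induced pool above let-7d (12.2%). let-7f, let-7g and let-7i stayed below all GG members in every pool. Members differ by as little as 1 base, so the division of reads among names is less certain than their sum.

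**Figure D2:**
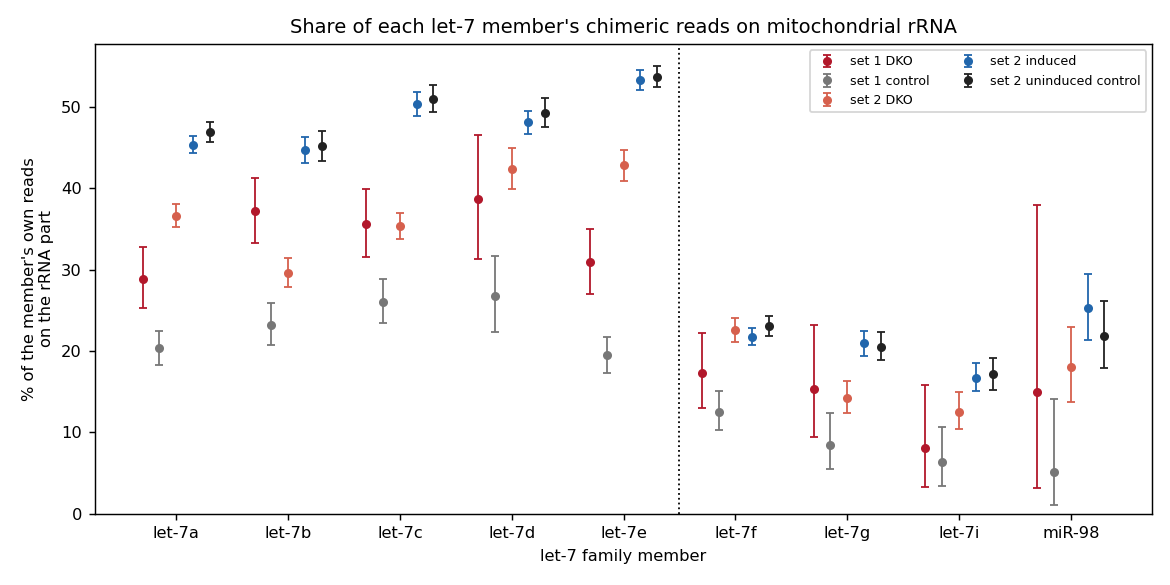
Share of each let-7 member's own chimeric reads that lay on the rRNA part (vertical axis, percent) by member, 1 point per pool with its exact 95% interval; members left of the dotted line read GG at bases 11 and 12. Left of the line points run from 19.5% to 53.7%, right of it from 5.08% to 25.3%, and within each pool the groups do not overlap by reads.

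let-7f also sat differently within site 1. Of its 2960 reads there, 39.6% ended at or before the centre of the site (base 653), against 6.09% of let-7a, 3.96% of let-7d and 0.0770% of let-7e reads. Its median target part was 30 bases, against 37 to 39 for the other members. It started 5 or more bases upstream of base 637 in 46.7% of reads, against 11.8% to 16.6% for the other 8 names. The share of let-7f reads ending by the centre was 20.5% (9.30 to 36.5) in the set 1 DKO pool, against 39.1% (29.1 to 49.9) in the set 1 control pool. It was 57.8% (53.8 to 61.8) in the set 2 DKO pool, 32.2% (29.6 to 34.9) in the induced pool and 38.0% (35.0 to 41.0) in the uninduced pool. The deepest single combination of all pools was of this kind, let-7f on chrM:626-646 with 225 reads in the induced pool.

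The 3p arms of let-7, which lack the seed, had 25 of 1002 reads on the rRNA (2.50%). Of the other names that share the let-7 seed in RefSeq, let-7k had 0 of 14 reads on the rRNA and miR-1961 had no reads.

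The remaining sites had other partners. Site 2 (midpoints chrM:508-548) held 4679 reads, 74.4% of them of miR-31-5p, a miRNA known for promoting keratinocyte growth, and 57.0% started at base 498. miR-31-5p made up 68.8% of the site's reads in the set 1 DKO pool, 67.0% in the set 1 control pool, 67.8% in the set 2 DKO pool, 76.3% in the induced pool and 75.8% in the uninduced pool. It led site 6 (chrM:558-598; 29.9%) too, first among its 6 most frequent names in every pool but that of set 1 DKO, where let-7a had the same share (11.6%), and over all pools together site 8 (chrM:201-241; 18.6%), though there not in set 1. The opposite arm of the same hairpin, miR-31-3p, was the second name at site 6 with 11.6% of reads, and 57.7% of its rRNA reads lay in 1 window there. miR-183-5p, a member of a cluster with miR-96, was the second name at site 2 with 6.01%.

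Site 3 (chrM:392-432; 1898 reads) belonged to miR-23. miR-23a-3p held 71.8% and its near-identical relative miR-23b-3p 18.1%, and together they held most of the reads in every pool. miR-27a-3p, made from the same cluster as miR-23a, held 2.95%. Site 10 (chrM:438-478; 319 reads), next to it, was led by miR-23a-3p with 39.2%. Target parts at site 3 were the longest of the 10, with a median of 52 bases against 34 to 45 at the others.

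Site 5 (chrM:674-714; 1234 reads) was led, over all pools together, by miR-200c-3p with 29.8%, a member of the family depleted in the DKO pools. The window of site 5 begins where that of site 1 ends, at the least spacing allowed, so it can hold reads from the edge of site 1. The deepest place of miR-200c-3p itself lay somewhat further on (midpoints chrM:686-726). miR-200c-3p held 2.86% of the site's reads in the set 1 DKO pool (35 reads at the site) and 64.5% in the set 1 control pool (62 reads). It held 1.92% in the set 2 DKO pool, 33.2% in the induced pool and 32.8% in the uninduced pool. Site 4 (chrM:721-761) had no single leader, with miR-21a-5p at 12.5% and miR-96-5p at 8.19%. Site 9 (chrM:835-875) was likewise mixed, with miR-31-5p at 8.57% over all pools together. Site 7 (chrM:888-928) had miR-210-3p, the miRNA best known from hypoxia, as its first name over all pools together, with 14.0% of reads. Among the 6 most frequent names of the site, miR-210-3p was first in the set 1 control pool (32.5%) and the uninduced pool (17.5%), while miR-669a-5p (33.3%) was first in the set 1 DKO pool, miR-205-5p (16.2%) in the set 2 DKO pool and let-7b (13.0%) in the induced pool.

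**Figure D3:**
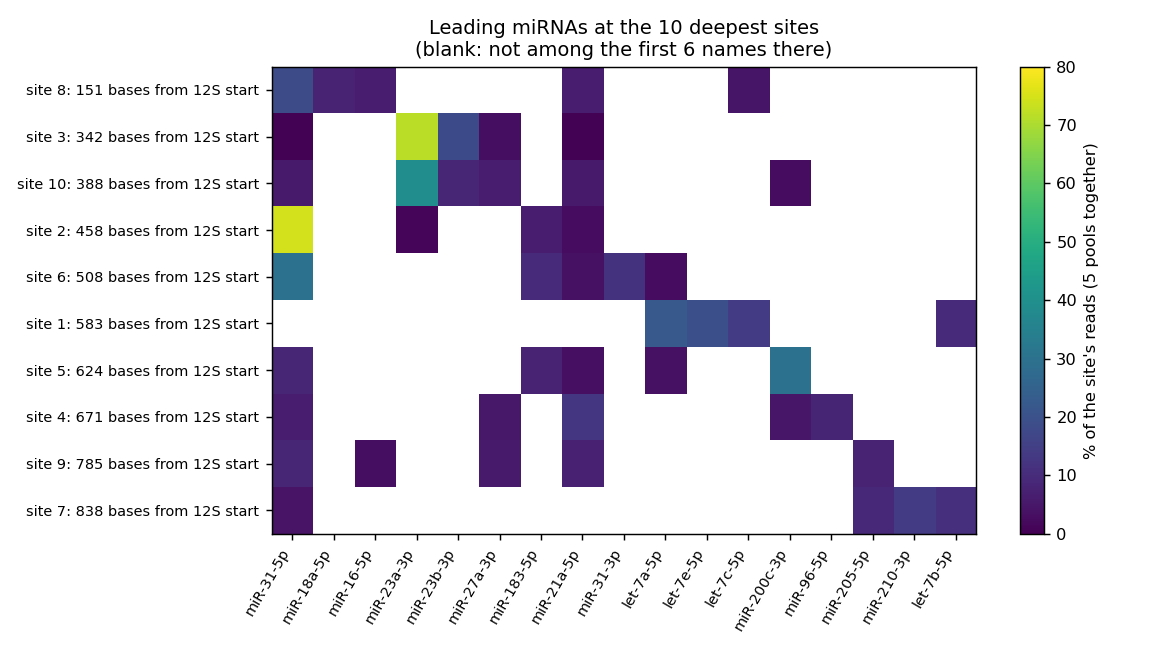
Share of each site's reads, over the 5 pools together, held by the miRNA named on the horizontal axis (colour, percent); sites run from the 12S start at the top and blank cells are names outside the first 6 of that site. miR-31-5p holds 74.4% of site 2 and miR-23a-3p 71.8% of site 3, while site 4 is led by a name with 12.5%.

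The miR-200 family, the subject of the knockout, was a small part of the rRNA reads. It had 1 read in the set 1 DKO pool (0.0777% of rRNA reads) and 89 in the set 1 control pool (4.07%). It had 20 reads in the set 2 DKO pool (0.173%), 950 in the induced pool (3.80%) and 540 in the uninduced pool (2.93%). Of the 20 reads of the set 2 DKO pool, 19 had a read alike in position, miRNA and barcode in a second pool of the lane, as did the 1 read of the set 1 DKO pool. In the induced pool against the uninduced pool, miR-200b-3p held 2.53 times the share of rRNA reads (1.87 to 3.47), miR-429-3p 1.94 times (1.23 to 3.14), miR-200c-3p 1.08 times (0.942 to 1.24) and miR-141-3p 1.13 times (0.879 to 1.47). miR-200a-3p had 17 reads in the induced pool and 5 in the uninduced pool. The share of the family's own reads that lay on the rRNA was 0.973 times the uninduced one in the induced pool (0.874 to 1.08).

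Between pools, the rRNA share of the set 1 DKO pool was 1.96 times that of the set 1 control pool (conditional exact 95% interval 1.82 to 2.10). That of the set 2 DKO pool was 0.935 times that of the uninduced pool (0.914 to 0.957), and that of the induced pool 1.02 times (0.997 to 1.04). The set 2 DKO ratio turned to 1.27 (1.22 to 1.32) when each combination of position and miRNA was counted once, to 1.33 without site 1 and to 1.31 without let-7. The set 1 ratio was 1.97 with combinations and 1.69 without the 9 names frequent in set 1. Other RNA moved too: cytoplasmic 18S rRNA was at 1.49 and the rest of chrM at 1.41 times control in set 1 DKO, and at 0.778 and 0.663 times uninduced in set 2 DKO. In the induced pool they were at 0.724 (0.701 to 0.747) and 0.963 (0.938 to 0.988) times uninduced. Their part in the result was not tested.

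**Figure D4:**
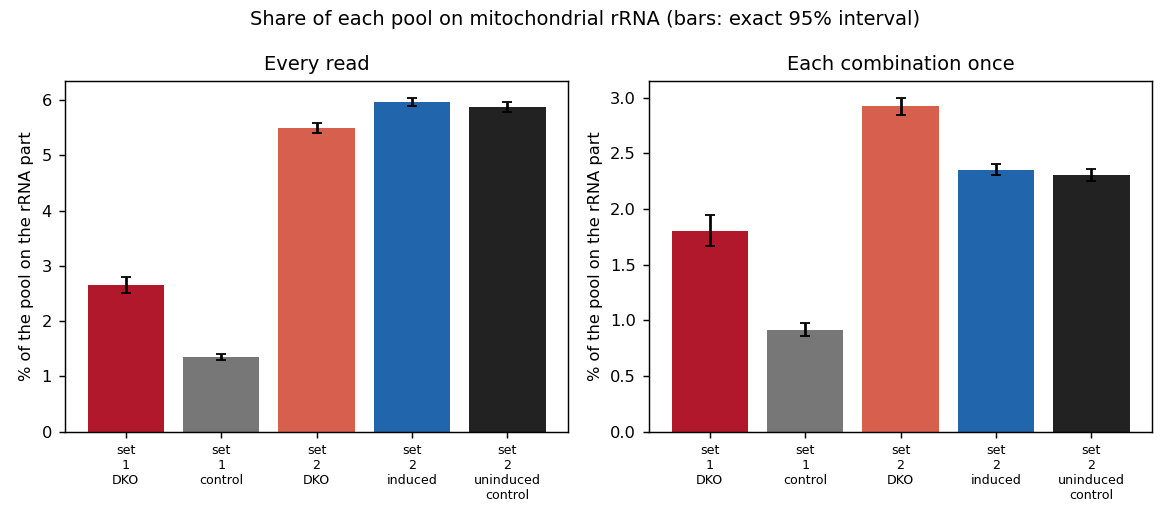
Share of each pool's reads (left) and of its distinct combinations of position, strand and miRNA (right) on the rRNA part, in percent, with exact 95% intervals. By reads the set 2 DKO pool is the lowest of set 2 at 5.49%, and by combinations it is the highest at 2.92%.

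On the rRNA, let-7 and the other miRNAs differed between pools in different ways. let-7 reads on the rRNA held 2.23 times the control share of the pool in set 1 DKO (2.05 to 2.43), 0.765 times the uninduced share in set 2 DKO (0.742 to 0.788) and 0.934 times in the induced pool (0.913 to 0.957). Reads of all other miRNAs on the rRNA were at 1.55 (1.37 to 1.74), 1.31 (1.27 to 1.37) and 1.20 (1.16 to 1.24). As a share of let-7's own reads, 30.3% in the set 1 DKO pool lay on the rRNA against 19.9% in the control pool. It was 31.9% in the set 2 DKO pool and 40.5% in the induced pool, against 41.4% in the uninduced pool. By combinations the set 2 DKO value was 11.2% against 11.2% (ratio 0.993, 0.930 to 1.06). The 16S gene by itself was at 1.16 (0.822 to 1.62), 1.23 (1.11 to 1.36) and 1.03 (0.947 to 1.13).

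A site was counted as higher or lower where its share of the pool differed at least 1.5-fold with an interval that excluded 1. The same rule over 10000-base nuclear windows, by strand and with at least 20 reads in the 2 pools together, gives the background. Sites had no such minimum and were not matched to windows for depth. An interval excludes 1 more easily at greater depth, so the background is a rough guide only. In set 1 DKO over control 5 of 10 sites were higher (background 10.8%) and 0 lower (10.6%). Site 6 was at 4.20 (2.62 to 6.79), site 2 at 2.83 (2.07 to 3.85), site 1 at 2.15 (1.97 to 2.33), site 5 at 1.88 (1.20 to 2.88) and site 4 at 1.72 (1.05 to 2.77). In set 2 DKO over uninduced 5 sites were higher (11.1%) and 1 lower (14.0%). Site 3, the miR-23 site, was at 3.30 (2.88 to 3.79), site 10 at 2.54, site 9 at 2.26, site 4 at 2.16 and site 6 at 1.78. Site 5, led by miR-200c-3p over all pools together, was at 0.608 (0.501 to 0.734). That last call ended when combinations were counted once (0.718, 0.584 to 0.879). Induced over uninduced, site 3 was higher at 1.52 (1.33 to 1.75; background 3.64%) and 0 sites were lower (3.44%). This call of site 3 also ended by combinations (1.28, 1.06 to 1.53). By reads, sites 4 and 6 were higher in both sets. By combinations site 6 was still higher in both, while site 4 in set 1 DKO was at 1.55 with an interval that included 1 (0.930 to 2.53) and site 3 passed there at 1.79 (1.17 to 2.70). Sites lie on 1 RNA and share their pools, so they are not independent of each other.

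The higher share of site 3 in set 2 DKO stood beside a higher share of its miRNAs in the whole pool. miR-23a-3p held 1.81 times the uninduced share of all reads in set 2 DKO and 3.17 times the uninduced share of rRNA reads. For miR-23b-3p these were 3.47 and 6.23. The other comparisons did not show both. In the induced pool miR-23a-3p held 0.954 times the uninduced share of all reads (0.930 to 0.980) and 1.39 times that of rRNA reads. In set 1 DKO it held 1.62 times the control share of all reads and 0.854 times that of rRNA reads (0.647 to 1.12). Of the reads of miR-23a-3p, 6.26% lay on the rRNA in the set 2 DKO pool and 5.65% in the induced pool, against 3.82% in the uninduced pool. In set 1 it was 4.32% in the DKO pool against 4.19% in the control pool, and site 3 was at 1.49 (1.13 to 1.94).

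**Figure D5:**
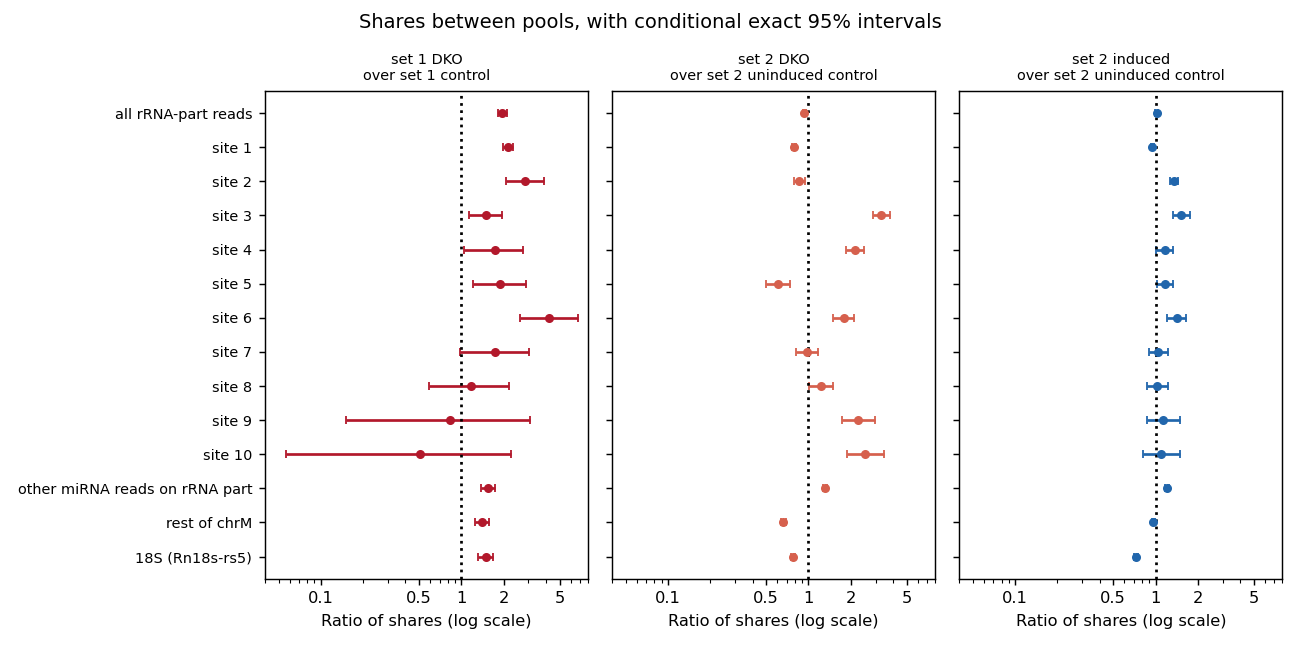
Ratio of the share of the pool (log axis) for the rRNA part, its 10 sites, reads of miRNAs other than let-7, the rest of chrM and 18S rRNA, with conditional exact 95% intervals; the dotted line marks 1. Site 3 stands at 3.30 and site 5 at 0.608 in set 2 DKO, and site 6 at 4.20 in set 1 DKO.

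Outside 12S, 1 place in 16S and 1 in a tRNA gene stood out, both chosen after their values were seen. miR-155-5p, known from immune cells, was rare in the pools (285 reads) but had 101 reads on the rRNA, 94 of them with midpoints at chrM:1918-1958 in 16S. That place held 213 reads in all, and miR-155-5p held 44.1% of them. Its reads there were 0 in the set 1 DKO pool, 15 in the set 1 control pool, 3 in the set 2 DKO pool, 51 in the induced pool and 25 in the uninduced pool. The DKO pools held 1 (set 1) and 7 (set 2) reads of miR-155-5p on any target. Of its own reads, 27.8% in the set 1 control pool (16.5 to 41.6), 40.6% in the induced pool (32.3 to 49.3) and 31.8% in the uninduced pool (22.1 to 42.8) lay on the rRNA. Among names outside let-7 with at least 50 reads, it had the highest such share in each of these 3 pools, where the median was 0%, 1.34% and 1.37%.

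miR-210-3p had 167 of 1608 reads on the rRNA, 138 of them in 1 window (chrM:885-925) that overlaps site 7. miR-6481 had 51 of 56 reads on the rRNA part, every one starting at base 48 in the phenylalanine tRNA gene, with 3 in the set 1 DKO pool, 23 in the set 1 control pool, 10 in the set 2 DKO pool, 11 in the induced pool and 4 in the uninduced pool. Whether its letters also occur in the mitochondrial sequence beside that start was not tested. Apart from let-7, the 16S reads of all pools together were spread over many names, led by miR-21a-5p with 9.81% and miR-31-5p with 6.57%. In set 1 miR-21a-5p did not lead. It held 2.04% in the DKO pool against 6.12% for miR-31-5p, and 5.71% in the control pool against 10.7% for miR-155-5p.

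Depth at single positions is limited by the barcode. The files hold no 2 reads alike in position, strand, miRNA and 4-base barcode, and 4 bases allow 256 barcodes, so no combination can hold many more reads than that. The deepest 3 held 225, 223 and 222 reads, all of them let-7 at site 1. In set 2, 100 or more reads were reached by 2 combinations in the DKO pool, 21 in the induced pool and 16 in the uninduced pool, and by none in set 1. Reads shared with another pool of the lane made up 17.2% of rRNA reads in the set 1 DKO pool and 10.2% in the set 1 control pool, against 17.4% and 5.17% of the other reads of these pools. They made up 31.5% in the set 2 DKO pool, 25.3% in the induced pool and 32.4% in the uninduced pool, against 8.90%, 6.84% and 8.14% of these pools' other reads. In set 2 the share rose with the number of barcodes a combination held, to 69.0% at 100 or more against 6.31% at 1. The part of this ceiling in the read counts of site 1 was not tested.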

How the data were processed

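CLEAR-CLIP chimeric reads of cultured mouse keratinocytes were used as deposited. Per the labels' protocols, UV light (254 nm, 300 mJ/cm2) crosslinked the cells before Argonaute 2 was precipitated. The submitters' processing notes name mm10 as the genome build, with Novoalign, cutadapt and bedtools as tools and no versions. The deposited values are another kind of unit than counts: an entry gives the position and strand of the target part of 1 chimeric read, with its barcode and miRNA name. The treatment of reads that also match nuclear copies of mitochondrial DNA was not stated in the labels. Starts were turned to count from 1.

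Each group's libraries share 1 file without library names, so shares have exact Clopper-Pearson and ratios conditional exact 95% intervals for counting error, and no test was made. The floor is 3 reads. Target parts went to genes by midpoint, from RefSeq GRCm38.p6 annotation. Sites are 10 windows of midpoints taken in order of mean share over pools, each centre at least 41 bases from those already taken. A site beside a deeper one need not be a local maximum. Named miRNAs are the 5 of the miR-200 family, the 10 with the highest mean share of rRNA reads and, per direction, the 5 with the largest mean ratio among names called in all 5 pools, beside the let-7, epidermal and set 1 lists; others were named after their values were seen. The 9 epidermal names were miR-21a, miR-23a, miR-24, miR-27a, miR-31, miR-203, miR-205 and the b forms of miR-23 and miR-27. Members and lists were chosen with earlier results of these data known. Mature sequences were found for 20 of 21 names sought. The calling of names and sites was tested on simulated data. The simulated sites were peaks lying far apart, so windows that abut, such as those of site 1 and site 5, were not covered. Alternatives counted combinations once, kept plus-strand members alone, or changed the count minimum and fold. Others left out lane-shared reads, 9 miRNA names, the tRNA genes, site 1, let-7 or marked read names. Python 3.11.15, pandas 2.3.3, numpy 2.4.6, scipy 1.17.1 and matplotlib 3.10.9 were used.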

Additional observations from a re-analysis of the deposited data

Results flagged for a closer look

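Counted by reads, the DKO pools of the sets moved in opposite directions against their own controls, with intervals on either side of 1. For all rRNA reads the ratio of shares was 1.96 in set 1 and 0.935 in set 2. It was 2.23 and 0.765 for let-7 reads on the rRNA, and 2.04 and 0.919 for the 12S gene. For site 1 it was 2.15 and 0.788, for site 2, the miR-31-5p site, 2.83 and 0.860, and for site 5 1.88 and 0.608. The make-up of site 5 differed between pools. miR-200c-3p held 2.86% of its reads in set 1 DKO against 64.5% in control, so the 1.88 was not a rise of miR-200c-3p. In set 2 it held 1.92% in DKO against 32.8% uninduced. The difference between the sets was not tested, since each group is 1 pool, and control cells and sequencing run differ between the sets too. Counted by combinations, the whole rRNA part was at 1.97 in set 1 and 1.27 in set 2, both above 1. By reads it was at 1.58 and 1.31 without let-7, and at 1.62 and 1.33 without site 1. By combinations site 1 was at 2.47 and 1.11, site 2 at 2.61 and 1.11, and site 5 at 1.80 and 0.718, so the opposite direction remained at site 5 alone of these 3 sites.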

How the results depend on the processing

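Of 103 values recomputed, 64 stayed, 36 moved and 3 turned direction. Among the 64, 12 came from keeping plus-strand members alone, which could change nothing since every rRNA read lay on that strand. Leaving out marked read names also left the set 2 shares and ratios exactly as they were. A share or ratio stayed where it lay within its main interval, and a count of names or sites where it lay within 1.5-fold. A share or ratio that moved can thus differ by little. Counting each combination once gave rRNA shares of 1.80% and 0.917% in set 1 (DKO, control) and 2.92%, 2.35% and 2.30% in set 2 (DKO, induced, uninduced), turned the set 2 DKO ratio to 1.27, and left 2 names under in all 5 pools and 17 in set 2. Of the sites it left 0 lower in set 2 DKO (site 5 lost) and 0 higher in the induced pool (site 3 lost), and in set 1 DKO it exchanged site 4 for site 3 among the 5 higher. Without lane-shared reads the shares were 1.28% (set 1 control), 4.19%, 4.85% and 4.39% (set 2), the induced ratio was 1.10 and 2 sites were higher in the induced pool. Without the 9 names frequent in set 1 the shares were 3.66%, 2.16%, 5.74%, 6.19% and 6.08%, the set 1 ratio 1.69 and 4 names were under in all pools. Without site 1 the ratios were 1.62 (set 1 DKO), 1.33 (set 2 DKO) and 1.20 (induced). Without let-7 the shares were 0.896%, 0.568%, 2.65%, 2.41% and 2.02%, the ratios 1.58, 1.31 and 1.19, 1 name was over and 1 under in all pools, and 16 were under in set 2. A minimum of 50 reads left 2 names under in all pools and 32 in set 2, since fewer names were measured. Counting combinations once or leaving out let-7 can also take names below the minimum of 20. The cause of the other changes was not tested. The removal of the let-7 family or of marked read names, and the alternatives for sites, were chosen after the data were seen. No paired analysis was possible because the libraries of each group are pooled in 1 file without library names. No library could be left out for the same reason. With 1287 and 2186 rRNA reads, set 1 leaves site 9 and site 10 with 2 to 13 reads a pool, too few to show a difference.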
